A study of Mus musculus with 60 samples.

Results

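Mouse embryonic stem cells that had lost both Lnc956, a long noncoding RNA, and P53 were compared with cells that had lost Lnc956 alone, 9 hours after the start of etoposide. The libraries were chosen by their labels: 2 of Lnc956 knockout and P53 knockdown cells, called combined-loss cells here, and 2 of Lnc956 knockout cells, 4 of the 60 samples of the series. RNA abundance was given as FPKM, fragment counts scaled by transcript length and library size, for 24314 gene rows. Both groups carry the Lnc956 knockout and differ by the P53 knockdown, so the comparison asks what P53 depletion does to RNA levels in cells without Lnc956. Cells were grown in knockout serum replacement with leukemia inhibitory factor. The combined-loss libraries are labelled 1 uM etoposide (replicate 1) and 10 uM etoposide (replicate 2), and both knockout libraries 1 uM, while the general treatment protocol names 10 uM. Replicate 2 of the combined-loss cells can therefore differ from replicate 1 in dose as well. The labels name neither the method of the knockdown nor a clone, and do not say that replicates came from separate cultures. The p-values therefore measure the spread between libraries within groups, estimated over all 14 groups of the fit. Further libraries used beside them are untreated (0 h) combined-loss and knockout cells, and P53 knockdown and wild-type (WT) cells, both with Lnc956, at 9 h of 1 uM etoposide, 2 libraries each. Combined-loss and knockout cells at 3 and 6 h, also 2 libraries each, are given as levels over time, and are labelled 1 uM except replicate 2 of knockout cells at 3 h and replicate 1 of knockout cells at 6 h, which are labelled 10 uM.

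P53, encoded by Trp53, is a transcription factor that is stabilised after DNA damage and raises transcription of genes for cell-cycle arrest, apoptosis, DNA repair and its own degradation. Etoposide traps topoisomerase II on cut DNA and so leaves double-strand breaks. In mouse embryonic stem cells P53 is abundant before damage, acts on pluripotency and signalling genes as well as on its stress targets, and has been placed upstream of the 2-cell-like state, a rare state in which Dux and the Zscan4 genes are transcribed.

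Trp53 RNA, the target of the knockdown, was 53.5 and 56.7 FPKM in the combined-loss libraries, against 176 and 183 FPKM in the knockout libraries. The groups did not overlap, and the change was -1.69 on the log2(FPKM + 1) scale (SE 0.096, limma adjusted p = 6.47e-11). Lnc956 itself was not analysed here. The fragment totals are unknown. Among values under 0.15 FPKM, the steps were 1.67 and 1.8 times as large in the knockout libraries as in combined-loss replicate 1 (0.996 times in replicate 2), so low values in the knockout libraries rest on fewer fragments. The 8 embryonic stem cell markers were each at 1 FPKM or more in all 4 libraries. Of 17 fibroblast and feeder markers, 16 were at 1 FPKM or more in both combined-loss libraries, with sums of 785 and 823 FPKM, and 15 in both knockout libraries, with sums of 1298 and 1387 FPKM. Of the 16 of these markers tested at 9 h, 3 were higher (Dcn, Lum and Mmp2) and 4 lower (Col1a1, Fbln2, Vim and S100a4), and the list's median log2 change was 0.20 although its sum was lower in combined-loss cells. Vim, an intermediate filament gene, was at 350.0 and 391 FPKM in combined-loss libraries, against 664 and 734 FPKM in knockout libraries. Lum, encoding a matrix proteoglycan, ran the other way, with 7.43 and 6.94 FPKM in combined-loss libraries, against 0.851 and 0.551 FPKM in knockout libraries. The part of such cells in the results below was not tested.

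P53 depletion went with a broad change in RNA levels at 9 h. Of 14223 genes tested, 7537 passed an adjusted p of 0.05 in limma, 2912 of them (20.5%) higher in combined-loss cells and 4625 (32.5%) lower. Each count of list members at 9 h is to be read beside these shares. A change of at least 2-fold was met by 767 higher genes (5.39%) and 1579 lower genes (11.1%). The median over all genes was -0.13 on the log2 scale, and under quantile scaling, which sets it to 0.00243, the calls were 3805 higher and 3866 lower. The share of higher calls was thus 38.6% as deposited and 49.6% after quantile scaling, close to even. The values of the 2 groups did not overlap in 11024 genes (77.5%).

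Direct targets of P53 were lower more often than all genes tested, but not uniformly so. The 4 lists of textbook targets, together 67 genes, were examined by role, and 64 passed the filter on low values (the others, among them Trp53cor1 and Casp1, did not). In combined-loss cells 30 were lower (32.5% of all genes tested were), 18 were higher (20.5% of all genes) and 16 did not pass the test, with a median of -0.29 beside -0.13 over all genes tested. After quantile scaling 31 were lower and 20 higher (3866 and 3805 of all 14223 genes). For 3 of the targets that did not fall, the 250 bases before the annotated start are shown from RefSeq (GRCm38.p6), 5′ to 3′ on the gene's strand, because the P53 peaks of treated wild-type cells cover all 3 windows. Capitals mark matches to the P53 half-site, the 10-base unit of the P53 response element, whose consensus was searched on both strands. Windows were taken from chosen targets and only where a half-site matched, so the matches shown were set by that choice. The Mdm2 and Sesn1 windows, taken by the same rule, are not shown and do not lie in such a peak.
Cdkn1a: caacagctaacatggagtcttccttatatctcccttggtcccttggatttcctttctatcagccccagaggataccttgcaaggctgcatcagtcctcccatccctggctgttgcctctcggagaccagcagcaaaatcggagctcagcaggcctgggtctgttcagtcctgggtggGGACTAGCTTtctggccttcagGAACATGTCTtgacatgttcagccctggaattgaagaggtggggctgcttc
Ccng1: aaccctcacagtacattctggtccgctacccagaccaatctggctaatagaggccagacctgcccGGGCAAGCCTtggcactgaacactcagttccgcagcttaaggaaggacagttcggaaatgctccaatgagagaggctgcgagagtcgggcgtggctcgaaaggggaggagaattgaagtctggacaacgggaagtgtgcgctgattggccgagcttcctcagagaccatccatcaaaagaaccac
Aen: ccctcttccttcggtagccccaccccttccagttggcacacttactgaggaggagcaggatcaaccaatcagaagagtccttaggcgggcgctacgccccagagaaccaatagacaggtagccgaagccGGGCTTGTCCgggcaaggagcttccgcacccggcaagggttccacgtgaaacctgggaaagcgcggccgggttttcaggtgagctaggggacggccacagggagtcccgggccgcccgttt
The Cdkn1a window lies at chr17:29090729-29090978 on the plus strand, with half-sites starting 73 and 51 bases before the start. The Ccng1 window lies at chr11:40755287-40755536 on the minus strand, with 1 half-site starting 185 bases before the start. The Aen window lies at chr7:78895808-78896057 on the plus strand, with 1 half-site starting 121 bases before the start. A half-site was found in 7.13% of all 32851 promoter windows and in 5.99% of the 1703 windows within a P53 peak, so matches were not more frequent in windows with a peak.

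Of the 9 feedback and modifier genes tested, 3 were lower (Zmat3, Rchy1 and Pidd1), 1 was higher (Pvt1) and 5 did not pass (Mdm2, Mdm4, Ccng1, Ppm1d and Trp53inp1). Mdm2, the ubiquitin ligase that degrades P53, was at 130.0 and 138 FPKM in combined-loss libraries, against 128 and 131 FPKM in knockout libraries. These values differed by 0.051 on the log2 scale (SE 0.10, limma adjusted p = 0.707), and by -0.121 after quantile scaling, so no direction is given for Mdm2. Ccng1, encoding cyclin G1, was at 281 and 204 FPKM in combined-loss libraries, against 217 and 210.5 FPKM in knockout libraries. Its groups overlapped (log2 difference 0.16, SE 0.20, limma adjusted p = 0.532), and without combined-loss replicate 1 the difference was -0.0692. Zmat3, an RNA-binding growth suppressor, fell to 16.8 and 17.7 FPKM in combined-loss libraries, against 30.1 and 29.1 FPKM in knockout libraries (log2 -0.75, SE 0.13, limma adjusted p = 8.72e-05). Pidd1, the death-domain scaffold of the PIDDosome, was at 12.9 and 12.1 FPKM in combined-loss libraries, against 23.7 and 26.4 FPKM in knockout libraries, and its log2 change was -0.95. Pvt1, a noncoding RNA next to Myc, was at 2.25 and 2.70 FPKM in combined-loss libraries, against 0.728 and 0.946 FPKM in knockout libraries (log2 0.92). Thus the 3 feedback genes with the lower values moved by about 1 log2 unit or less, and Mdm2 was at the same level within the spread of its libraries.

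Among the 12 growth-arrest targets tested, 5 were higher (Cdkn1a, Gadd45a, Gadd45b, Plk3 and Gtse1), 4 lower (Btg1, Gadd45g, Cdc42bpg and Psrc1) and 3 did not pass (Btg2, Plk2 and Sfn). Cdkn1a, encoding the cyclin-dependent kinase inhibitor p21, was at 341 and 355 FPKM in combined-loss libraries, against 171 and 182 FPKM in knockout libraries. Both combined-loss values lie above both knockout values, and the log2 change was 0.98 (SE 0.10, limma adjusted p = 2.35e-07). Gtse1, a microtubule-associated protein that restrains P53 in G2, rose to 169 and 189 FPKM in combined-loss libraries, against 74.4 and 69.3 FPKM in knockout libraries (log2 1.30, SE 0.096, limma adjusted p = 2.21e-09). Plk3, a stress-responsive Polo-like kinase, was at 51.8 and 60.7 FPKM in combined-loss libraries, against 22.9 and 19.9 FPKM in knockout libraries, a log2 change of 1.35. Gadd45g, a stress sensor of the Gadd45 family, stood against these with 9.95 and 9.12 FPKM in combined-loss libraries, against 85.8 and 87.0 FPKM in knockout libraries (log2 -3.05, SE 0.25, limma adjusted p = 6.94e-09). The 3 Gadd45 genes therefore differed in direction, with Gadd45a and Gadd45b higher and Gadd45g lower.

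Of the 15 apoptosis targets tested, 5 were higher (Bax, Aen, Tnfrsf10b, Ei24 and Dusp1) and 7 lower (Pmaip1, Bid, Fas, Apaf1, Perp, Trp73 and Bcl2l11). Perp, a membrane protein that P53 uses as an apoptosis effector, fell to 45.4 and 56.7 FPKM in combined-loss libraries, against 146 and 147 FPKM in knockout libraries. Its groups were far apart (log2 -1.51, SE 0.13, limma adjusted p = 1.87e-08). Pmaip1, encoding the BH3-only protein Noxa, was at 61.9 and 61.8 FPKM in combined-loss libraries, against 176 and 178 FPKM in knockout libraries (log2 -1.50, SE 0.19, limma adjusted p = 2.47e-06). Trp73, the P53 relative p73, was at 5.57 and 5.65 FPKM in combined-loss libraries, against 22.3 and 21.5 FPKM in knockout libraries (log2 -1.79, SE 0.15, limma adjusted p = 1.54e-08). Aen, an exonuclease that P53 induces during apoptosis, went the other way with 137 and 138 FPKM in combined-loss libraries, against 56.2 and 54.3 FPKM in knockout libraries (log2 1.30, SE 0.11, limma adjusted p = 1.10e-08). The list thus held both large falls and large rises, and its median was 0.16. The higher members numbered 3 instead of 5 without the libraries labelled 10 uM, without combined-loss replicate 2 and without knockout replicate 1.

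The 28 repair, metabolism and other targets tested leaned most to lower values, with 16 lower and 7 higher and a median of -0.48. Sesn1, a sestrin that restrains mTORC1, fell to 3.22 and 3.06 FPKM in combined-loss libraries, against 16.9 and 20.2 FPKM in knockout libraries. This was a log2 change of -2.23 (SE 0.15, limma adjusted p = 7.80e-10). Fdxr, the mitochondrial ferredoxin reductase, was at 5.64 and 6.35 FPKM in combined-loss libraries, against 27.4 and 26.1 FPKM in knockout libraries (log2 -1.99, SE 0.17, limma adjusted p = 1.70e-08). Tap1, the peptide transporter of antigen presentation, was at 5.65 and 7.20 FPKM in combined-loss libraries, against 40.8 and 39.1 FPKM in knockout libraries (log2 -2.47, SE 0.22, limma adjusted p = 3.01e-08). Gdf15, a stress-induced secreted factor, rose instead to 44.6 and 47.2 FPKM in combined-loss libraries, against 11.3 and 9.38 FPKM in knockout libraries (log2 2.05, SE 0.16, limma adjusted p = 2.86e-09). None of these 4 genes had overlapping groups, as held for 77.5% of all genes tested, and the 4 were named for their small p.

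**Figure D1:**
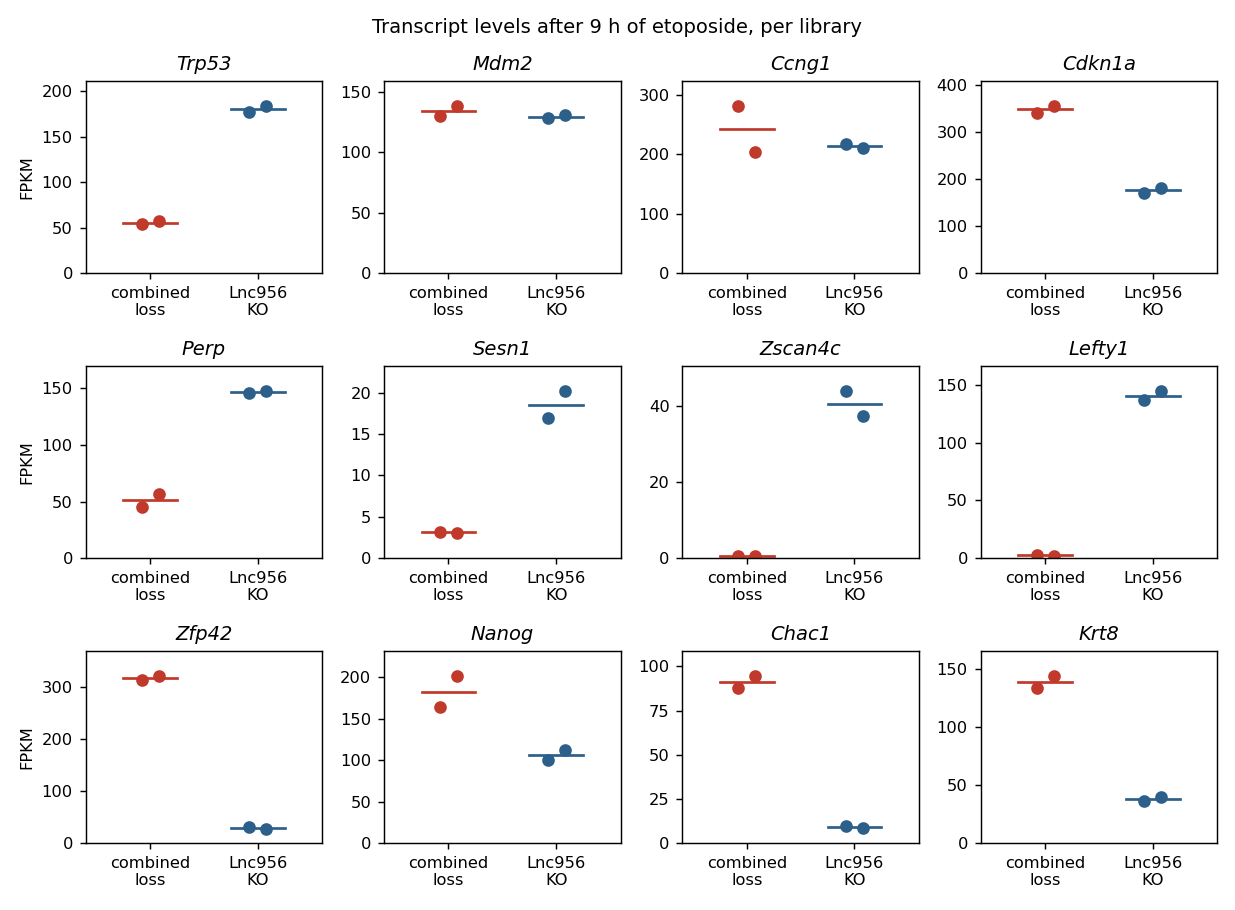
FPKM in each library at 9 h for 12 genes, with combined-loss libraries on the left and knockout libraries on the right of each panel and a line at each group mean. Mdm2 lies at nearly the same height in both groups, and the Ccng1 groups overlap, with combined-loss libraries at 281 and 204 FPKM. Cdkn1a, Zfp42, Nanog, Chac1 and Krt8 lie higher in combined-loss libraries, and Trp53, Perp, Sesn1, Zscan4c and Lefty1 lie lower.

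The same targets looked different before damage. In untreated cells 30 of the 64 targets were higher in combined-loss than in knockout cells and 11 lower (median 0.15, beside 0.07 over all genes; 31.4% and 23.9% of all genes were called in these directions). The 0 h and 9 h comparisons share no library. In the interaction of the same limma fit, 33 targets had a lower difference at 9 h than at 0 h and 10 a higher one (median -0.53, beside -0.23 over all genes, of which 31.9% and 15.5% were called). Mdm2 averaged 65.0 ± 2.51 FPKM at 0 h in combined-loss cells and 42.9 ± 2.57 FPKM in knockout cells (SD, n = 2 each). By 9 h it averaged 134 FPKM in combined-loss cells and 129 FPKM in knockout cells, so a gap present in untreated cells was no longer seen at 9 h (log2 difference of the differences -0.54, limma adjusted p = 0.00546). Ccng1 did the same more steeply, with means of 122, 126, 96.1 and 242 FPKM at 0, 3, 6 and 9 h in combined-loss cells and 40.8, 64.1, 204 and 214 FPKM in knockout cells (means of 2 libraries each; interaction -1.38, limma adjusted p = 0.000763). Knockout cells were at 6 h already near their 9 h level, while combined-loss cells were higher at 9 h than at the 3 earlier times.

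Perp and Trp73 crossed over. Perp averaged 31.5, 32.1, 38.1 and 51.0 FPKM at 0, 3, 6 and 9 h in combined-loss cells and 20.8, 26.3, 67.3 and 147 FPKM in knockout cells, so the combined-loss mean was the higher one at 0 and 3 h and the lower one at 6 and 9 h. The interaction was -2.09 (SE 0.19, limma adjusted p = 1.11e-07). Trp73 averaged 3.25, 3.72, 1.69 and 5.61 FPKM in combined-loss cells over the same times and 0.557, 0.688, 11.3 and 21.9 FPKM in knockout cells (interaction -3.25, limma adjusted p = 4.51e-09). Tap1 had the same shape, with 3.75 FPKM at 0 h and 6.43 FPKM at 9 h in combined-loss cells and 1.21 FPKM at 0 h and 40.0 FPKM at 9 h in knockout cells (interaction -3.58, limma adjusted p = 9.81e-08). In Sesn1 combined-loss cells stayed between 3.09 and 4.39 FPKM at the 4 times, while knockout cells had means of 6.14, 6.48, 11.2 and 18.5 FPKM (interaction -1.54, limma adjusted p = 1.68e-05).

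Cdkn1a changed its order over time. Its means at 0, 3, 6 and 9 h were 123, 109.7, 125 and 348 FPKM in combined-loss cells and 119.9, 186, 164 and 176 FPKM in knockout cells, so the combined-loss mean was the lower one at 3 and 6 h and the higher one at 9 h. At 0 h the groups differed by 0.033 on the log2 scale (limma adjusted p = 0.813), and the interaction with time was 0.95 (limma adjusted p = 4.99e-05). Gdf15 was already higher at 0 h, at 29.5 FPKM in combined-loss cells and 5.72 FPKM in knockout cells, and its difference at 9 h was not distinguishable from that at 0 h (interaction -0.13, limma adjusted p = 0.652). Trp53 itself averaged 56.9, 56.2, 62.1 and 55.1 FPKM in combined-loss cells and 294, 286, 239 and 180.0 FPKM in knockout cells, so its RNA was lower in combined-loss cells at each time, with a narrower gap at 9 h than at 0 h (interaction 0.66, limma adjusted p = 0.000643).

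**Figure D2:**
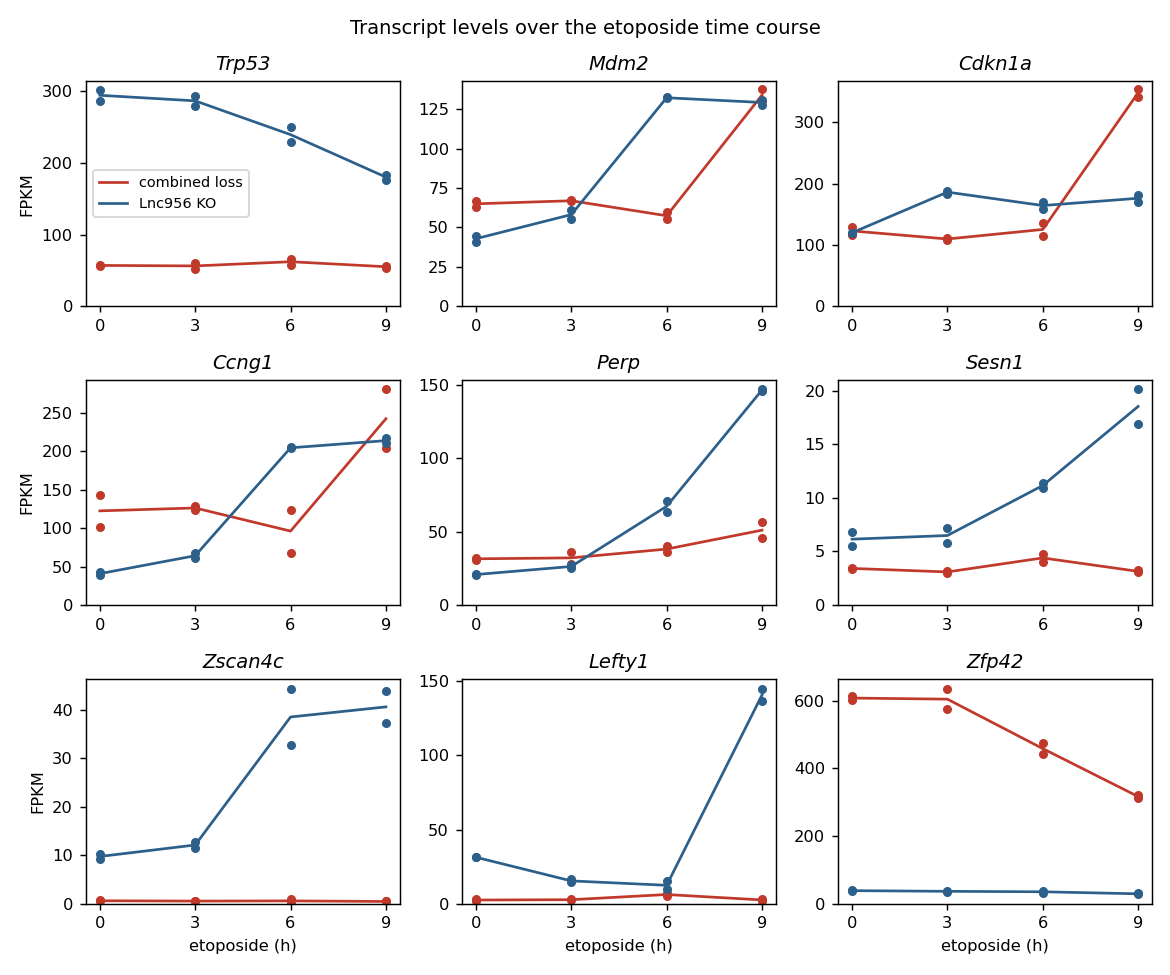
FPKM of 9 genes at 0, 3, 6 and 9 h of etoposide, with lines through the means of 2 libraries and points for the libraries of combined-loss and knockout cells. At 9 h Cdkn1a reaches 348 FPKM in combined-loss cells, Perp reaches 147 FPKM in knockout cells, and Zscan4c stays under 1 FPKM in combined-loss cells.

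P53 ChIP peaks of the same series were set beside these changes. They come from wild-type cells, untreated or with 10 uM etoposide (the time is not given), and not from the cells compared here. Of the 64 targets, 43 (67.2%) had a peak within 10 kb that was called in both treated libraries, against 3649 of the 14178 tested genes with a position (25.7%). Of these 43 genes 20 were lower in combined-loss cells, 13 were higher and 10 did not pass, so a nearby peak went with either direction. Over all tested genes the shares with such a peak were 23.6% of the lower genes (95% Wilson interval 22.4 to 24.9%), 30.1% of the higher genes (28.5 to 31.8%) and 25.3% of the genes that did not pass (24.3 to 26.3%). The interval of the higher genes lay above the other 2 here, although genes are not independent of each other. For rises of at least 2-fold (27.5%, 24.4 to 30.8%) it overlapped the interval of genes that did not pass. Falls of at least 2-fold had a share of 22.2% (20.2 to 24.3%). With peaks of untreated WT cells the shares were 1.74% of lower genes (1.4 to 2.16%) and 2.92% of higher genes (2.37 to 3.6%). Genes that did not pass had 1.98% (1.67 to 2.34%). With peaks of treated cells of −log10 q of 10 or more the intervals overlapped. They were 3.16 to 4.25% for lower, 3.75 to 5.25% for higher and 3.29 to 4.2% for other genes. With the folds over background that the authors deposited for each replicate, the strongest peak near Cdkn1a was at chr17:29089468-29092379 with 14.2 and 13.5. The strongest peak near Ccng1 was at chr11:40754786-40756349 with 17.2 and 14.3, and that near Aen at chr7:78895698-78896397 with 9.63 and 10.5. Among targets that fell, the strongest peak had folds of 10.6 and 10 near Tap1, 7.6 and 8.02 near Trp73 and 6.31 and 5.81 near Sesn1, while Perp, Pmaip1 and Fdxr had no shared peak within 10 kb. Rap2b, a Ras-related GTPase gene of the same lists, fell and had a still stronger peak, with folds of 19.8 and 16.1, so strong peaks lay near targets of either behaviour.

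Genes of the 2-cell-like state were lower as a group. All 13 tested members of the list were lower in combined-loss cells, with a median of -3.51 beside -0.13 over all genes. All 13 were also lower after quantile scaling and at 0 h, where 23.9% of all genes tested were lower. Windows of 250 bases before the starts of Zscan4c and Zscan4f are shown from RefSeq (GRCm38.p6) because the Zscan4 genes are close copies of each other. Capitals in the Zscan4f line mark bases that differ from Zscan4c or lie outside the Zscan4c window, whose annotated start is offset.
Zscan4c: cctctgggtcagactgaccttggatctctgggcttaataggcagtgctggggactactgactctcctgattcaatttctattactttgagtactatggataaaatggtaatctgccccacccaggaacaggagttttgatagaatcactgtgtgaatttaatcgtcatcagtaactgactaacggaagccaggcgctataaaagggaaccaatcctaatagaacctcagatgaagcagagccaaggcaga
Zscan4f: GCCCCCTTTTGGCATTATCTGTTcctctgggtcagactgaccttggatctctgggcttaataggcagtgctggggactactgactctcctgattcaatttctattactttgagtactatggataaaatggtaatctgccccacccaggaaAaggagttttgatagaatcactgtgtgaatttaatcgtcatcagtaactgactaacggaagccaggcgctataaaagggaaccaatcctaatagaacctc
The Zscan4c window lies at chr7:11005495-11005744 and the Zscan4f window at chr7:11397665-11397914, both on the plus strand. The 2 windows were identical at 226 of 273 aligned positions, and 46 of the 273 were gaps. Zscan4 copies are close paralogs whose reads a counter can split, which was not tested here, so single values are uncertain. Zscan4c, a telomere-associated zinc finger gene of the 2-cell stage, was at 0.479 and 0.475 FPKM in combined-loss libraries, against 43.9 and 37.4 FPKM in knockout libraries (log2 -4.81, SE 0.41, limma adjusted p = 1.50e-08). Zscan4f was at 1.12 and 0.434 FPKM in combined-loss libraries, against 56.9 and 45.8 FPKM in knockout libraries. Dux, the transcription factor that activates the 2-cell programme, was at 0.140 and 0 FPKM in combined-loss libraries, against 4.03 and 3.90 FPKM in knockout libraries (log2 -2.22, SE 0.14, limma adjusted p = 2.49e-10). Combined-loss cells thus held these transcripts near or below 1 FPKM in both libraries.

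The gap to knockout cells widened with time. For 10 of the 13 members the difference was lower at 9 h than at 0 h by the interaction test. Over all genes this held for 4542 of 14223 (31.9%), and for 2776 after quantile scaling. Zscan4c averaged 0.623, 0.560, 0.599 and 0.477 FPKM at 0, 3, 6 and 9 h in combined-loss cells, while the means in knockout cells were 9.76, 12.1, 38.5 and 40.6 FPKM. The interaction with time was -2.08 (limma adjusted p = 0.00685). In cells with Lnc956, Zscan4c averaged 1.69 ± 0.200 FPKM after P53 knockdown and 42.3 ± 1.44 FPKM in WT cells at 9 h (SD, n = 2 each), a log2 change of -4.01. The changes with and without Lnc956 were not distinguishable for Zscan4c (difference -0.80, limma adjusted p = 0.27). All 13 list members were also lower after P53 knockdown with Lnc956, as were 24.8% of all genes tested. By the same interaction test, 6 of the 13 had a lower difference in the knockout background and 0 a higher one (30.9% and 17.4% of all genes). Dux was among the 6 (-0.64, limma adjusted p = 0.011). No P53 peak shared by both treated libraries lay within 10 kb of Zscan4a, Zscan4b, Zscan4c, Zscan4d or Zscan4f. Of the 12 list members with a position, 1 had such a peak, Tcstv3, with 3 of them and deposited folds of 31.6 and 29.4 for the strongest. Tcstv3 also had 1 shared peak within 10 kb in untreated WT cells. Dux had no usable position, so peaks near it were not examined. Whether ChIP reads can be placed at such close copies was not tested. In bulk RNA, fewer cells in the 2-cell-like state and less of its RNA per cell cannot be told apart.

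Genes of naive pluripotency, the state of the early epiblast, were mostly higher in combined-loss cells. Of 21 tested, 13 were higher, 4 were lower (Klf2, Fgf4, Gbx2 and Manba) and 4 did not pass (Nr0b1, Prdm14, Dppa3 and Tet2), with the same 13 and 4 counts after quantile scaling. Zfp42, the Rex1 gene that marks naive cells, was at 313 and 320.0 FPKM in combined-loss libraries, against 31.0 and 27.9 FPKM in knockout libraries (log2 3.38, SE 0.087, limma adjusted p = 9.86e-16). Klf5, a Krüppel-like factor of naive cells, was at 91.5 and 81.9 FPKM in combined-loss libraries, against 28.1 and 28.6 FPKM in knockout libraries, and Klf4, a reprogramming factor of the same family, was at 36.0 and 36.8 FPKM in combined-loss libraries, against 17.2 and 16.5 FPKM in knockout libraries. Their log2 changes were 1.57 and 1.07 (limma adjusted p = 9.10e-09 and 4.22e-07). Klf2 of the same family ran opposite, with 32.0 and 35.4 FPKM in combined-loss libraries, against 91.5 and 104 FPKM in knockout libraries (log2 -1.51, limma adjusted p = 2.36e-07). Pecam1, an adhesion molecule of naive cells, rose to 17.0 and 19.1 FPKM in combined-loss libraries, against 5.31 and 6.18 FPKM in knockout libraries. Esrrb, a nuclear receptor of the naive network, was at 31.8 and 31.1 FPKM in combined-loss libraries, against 19.6 and 18.3 FPKM in knockout libraries (log2 0.70, limma adjusted p = 4.39e-05). The Krüppel-like factors therefore did not move together, and the largest change among the naive genes named here was that of Zfp42.

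The core pluripotency list leaned lower, with 10 of 19 lower and 3 higher (Sox2, Nanog and Mybl2). Pou5f1, encoding Oct4, was at 798 and 837 FPKM in combined-loss libraries, against 923 and 979 FPKM in knockout libraries (log2 -0.22, SE 0.12, limma adjusted p = 0.151). It did not pass the test as deposited, although it did after quantile scaling (-0.251, limma adjusted p = 0.00268). Nanog, a homeobox factor of pluripotency that P53 is known to repress, was at 164 and 201 FPKM in combined-loss libraries, against 100.0 and 112 FPKM in knockout libraries (log2 0.77, limma adjusted p = 3.68e-06). Sox2, the partner of Oct4, was at 128 and 132 FPKM in combined-loss libraries, against 52.7 and 53.7 FPKM in knockout libraries (log2 1.28, limma adjusted p = 1.62e-07). Tdgf1, the Nodal co-receptor Cripto, fell to 74.7 and 91.2 FPKM in combined-loss libraries, against 409.5 and 488 FPKM in knockout libraries (log2 -2.42, limma adjusted p = 2.23e-09). Zscan10, a zinc finger factor of stem cells, fell to 11.7 and 10.9 FPKM in combined-loss libraries, against 50.4 and 49.5 FPKM in knockout libraries. Of the 3 core factors, Sox2 and Nanog were thus higher while Pou5f1 did not pass the test. Its groups did not overlap, as held for 77.5% of all genes tested.

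Genes of the formative and primed states, which follow the naive one, were listed together and are called the formative list here. They were lower more often than higher at 9 h, and Fgf5 of this list was not tested. At 0 h, 13 of the 18 tested were already lower and 2 higher (23.9% and 31.4% of all genes tested). In the formative list 11 of 18 were lower and 2 higher (Otx2 and Zic2), with a median of -0.60; without combined-loss replicate 1 or knockout replicate 1 the higher ones numbered 1. Lefty1, a secreted Nodal antagonist and Nodal target, was at 3.21 and 1.97 FPKM in combined-loss libraries, against 137 and 145 FPKM in knockout libraries (log2 -5.32, SE 0.26, limma adjusted p = 8.33e-12). Lefty2, its neighbour and close relative, was at 0.895 and 1.09 FPKM in combined-loss libraries, against 21.3 and 21.1 FPKM in knockout libraries. Pou3f1, the Oct6 gene of the formative epiblast, was at 1.10 and 1.11 FPKM in combined-loss libraries, against 10.2 and 12.3 FPKM in knockout libraries (log2 -2.53, limma adjusted p = 9.07e-09). Lefty1 and Lefty2 each had a shared P53 peak within 10 kb in treated wild-type cells, with deposited folds of 6.53 and 5.9 for the strongest peak near Lefty1 and 9.63 and 11 for that near Lefty2. In combined-loss cells Lefty1 averaged 2.53, 2.76, 6.24 and 2.59 FPKM at 0, 3, 6 and 9 h, while knockout cells had 31.3, 15.4, 12.5 and 141 FPKM. Combined-loss cells stayed under 10 FPKM, and knockout cells were lowest at 6 h and highest at 9 h. With Lnc956, Lefty1 averaged 218 ± 15.0 FPKM in P53 knockdown cells and 137 ± 6.62 FPKM in WT cells at 9 h (SD, n = 2 each; log2 change 0.66), and the 2 changes differed by -5.99 (limma adjusted p = 1.36e-10).

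Markers of other lineages moved in different directions. In the trophectoderm list, 6 of 10 were higher (Gata3, Krt8, Krt18, Krt7, Tead4 and Fgfr2), 1 was lower (Ascl2) and 3 did not pass (Tfap2c, Gata2 and Krt19). Krt8, a keratin of simple epithelia and trophectoderm, was at 134 and 144 FPKM in combined-loss libraries, against 36.3 and 40.4 FPKM in knockout libraries (log2 1.83, SE 0.27, limma adjusted p = 1.33e-05). Its difference was wider before treatment, with means of 135 FPKM in combined-loss cells and 6.39 FPKM in knockout cells at 0 h (interaction -2.37, limma adjusted p = 7.07e-05). Tead4, a transcription factor of the trophectoderm, was at 15.4 and 15.9 FPKM in combined-loss libraries, against 2.17 and 3.05 FPKM in knockout libraries (log2 2.22, limma adjusted p = 3.08e-09). Ascl2, a basic helix-loop-helix factor of the placenta, was at 1.87 and 1.59 FPKM in combined-loss libraries, against 22.9 and 25.5 FPKM in knockout libraries (log2 -3.21, limma adjusted p = 1.15e-09). Krt8 and Tead4 thus rose while Ascl2 fell, and without combined-loss replicate 2 the lower members numbered 2.

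In the neural list 4 of 7 were lower (Tubb3, Nkx2-9, Neurod1 and Olig2) and 1 higher (Pax6). Neurod1, a proneural factor, was at 1.24 and 1.24 FPKM in combined-loss libraries, against 14.6 and 15.1 FPKM in knockout libraries (log2 -2.82, limma adjusted p = 4.10e-10). Nkx2-9, a homeobox gene of the ventral neural tube, was at 17.2 and 16.6 FPKM in combined-loss libraries, against 78.4 and 84.7 FPKM in knockout libraries. Olig2, a factor of motor neuron and oligodendrocyte precursors, was listed at 0 in both combined-loss libraries, with 3.78 and 3.77 FPKM in knockout libraries. Among 11 mesoderm and endoderm genes 2 were higher (Eomes and Bmp4) and 4 lower (Gsc, Mesp1, Pdgfra and Cdx1), and the median of -0.12 was close to that of all genes.

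Cell-cycle genes were higher more often than lower. Of 24 G2/M genes 13 were higher and 1 lower (Cdc20), with a median of 0.52. Tpx2, a spindle assembly factor, was at 51.8 and 50.1 FPKM in combined-loss libraries, against 18.9 and 20.6 FPKM in knockout libraries (log2 1.33, limma adjusted p = 5.57e-08). Nusap1, a spindle microtubule protein, was at 17.9 and 13.7 FPKM in combined-loss libraries, against 5.03 and 4.06 FPKM in knockout libraries, and Ube2c, the ubiquitin-conjugating enzyme of the anaphase-promoting complex, was at 197 and 229 FPKM in combined-loss libraries, against 94.6 and 114 FPKM in knockout libraries. Of 22 G1/S genes 10 were higher and 4 lower, among them E2f1, Rrm2 and Tyms. Cdc45, a subunit of the replicative helicase, was at 50.0 and 54.9 FPKM in combined-loss libraries, against 25.6 and 28.4 FPKM in knockout libraries (log2 0.93). Rrm2, a subunit of ribonucleotide reductase, was at 140.4 and 154 FPKM in combined-loss libraries, against 169 and 178 FPKM in knockout libraries (log2 -0.23, limma adjusted p = 0.0329). The replication genes Cdc45, Mcm3 and Mcm10 were thus higher, while the nucleotide synthesis genes Rrm2 and Tyms were lower, in the same cells in which p21 RNA was higher.

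Of 32 DNA repair genes 9 were lower and 2 higher (Msh6 and H2afx), and 21 did not pass. In each direction this is a smaller share than over all genes tested (32.5% lower and 20.5% higher). H2afx, the histone variant that is phosphorylated at breaks, rose to 239 and 256 FPKM in combined-loss libraries, against 83.9 and 89.1 FPKM in knockout libraries (log2 1.50, limma adjusted p = 3.50e-09). Chek2, a checkpoint kinase upstream of P53, was at 8.31 and 9.36 FPKM in combined-loss libraries, against 17.5 and 18.1 FPKM in knockout libraries (log2 -0.93, limma adjusted p = 6.09e-07). Rad50, of the complex that binds broken ends, was at 7.59 and 6.41 FPKM in combined-loss libraries, against 19.5 and 15.6 FPKM in knockout libraries (log2 -1.21, limma adjusted p = 3.95e-05). Apart from H2afx, the repair genes named here moved by little more than 1 log2 unit. Of the 6 topoisomerase genes, Top1 and Top2a were higher and Top3b and Top1mt lower. Top2a, encoding the alpha isoform of the enzyme that etoposide traps, was at 103 and 63.8 FPKM in combined-loss libraries, against 52.0 and 44.5 FPKM in knockout libraries (log2 0.74, SE 0.28, limma adjusted p = 0.0298). The combined-loss replicates of Top2a are far apart, and its adjusted p was between 0.0536 and 0.325 in 6 of the alternatives, among them leaving out combined-loss replicate 1 or either knockout replicate.

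Stress programmes other than that of P53 also differed. Of 15 genes in the ATF4 list, which covers amino acid and unfolded protein stress, 8 were higher and 2 lower (Atf3 and Shmt2). Atf4 itself was at 579.8 and 669 FPKM in combined-loss libraries, against 154 and 165 FPKM in knockout libraries (log2 1.96, SE 0.15, limma adjusted p = 2.56e-09). Chac1, a glutathione-degrading enzyme under ATF4, was at 88.0 and 94.4 FPKM in combined-loss libraries, against 9.57 and 8.50 FPKM in knockout libraries (log2 3.20, SE 0.18, limma adjusted p = 4.35e-11). Over time Atf4 stayed between 609.9 and 664 FPKM in combined-loss cells, while knockout cells had means of 512, 513, 309 and 159 FPKM at 0, 3, 6 and 9 h. Chac1 likewise averaged 96.8 FPKM at 0 h and 91.2 FPKM at 9 h in combined-loss cells and 54.9 FPKM at 0 h and 9.04 FPKM at 9 h in knockout cells (interaction 2.39, limma adjusted p = 6.17e-07). The wider gap at 9 h thus came with a decline in knockout cells and little movement in combined-loss cells. Without knockout replicate 1 the higher members of this list numbered 5.

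Of 16 immediate-early genes 9 were higher and 4 lower (Jun, Ier3, Myc and Atf3). Ier2 was at 147 and 155 FPKM in combined-loss libraries, against 71.7 and 74.8 FPKM in knockout libraries (log2 1.04). Jun, a subunit of AP-1, was at 11.4 and 10.6 FPKM in combined-loss libraries, against 23.9 and 25.2 FPKM in knockout libraries (log2 -1.09), whereas its relative Jund was at 160.2 and 154 FPKM in combined-loss libraries, against 78.7 and 83.7 FPKM in knockout libraries (log2 0.95). The Jun family members named here therefore differed in direction.

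Genes induced by low oxygen were mainly lower, with 11 of 21 lower and 2 higher (Vegfa and Hk2) and a median of -0.66; the higher ones numbered 1 without either combined-loss replicate or without knockout replicate 2. Ankrd37, a target of hypoxia-inducible factor, was at 2.02 and 1.73 FPKM in combined-loss libraries, against 31.9 and 33.0 FPKM in knockout libraries (log2 -3.54, limma adjusted p = 9.71e-08). Egln3, an oxygen-sensing prolyl hydroxylase, was at 3.49 and 3.78 FPKM in combined-loss libraries, against 21.1 and 26.0 FPKM in knockout libraries (log2 -2.40). Eno1, the glycolytic enolase, was at 676 and 777 FPKM in combined-loss libraries, against 1715 and 1939.6 FPKM in knockout libraries (log2 -1.33). Sterol and lipid synthesis genes were lower in 10 of 18 and higher in 5, among them Fdps, Fdft1, Cyp51 and Srebf2. Fasn, fatty acid synthase, was at 14.1 and 13.6 FPKM in combined-loss libraries, against 42.1 and 42.9 FPKM in knockout libraries (log2 -1.55). Srebf2, the transcription factor that drives sterol synthesis, ran the other way with 69.0 and 67.1 FPKM in combined-loss libraries, against 25.5 and 29.7 FPKM in knockout libraries (log2 1.28). Fasn and Srebf2 thus moved in opposite directions. At 0 h, 17 of the 21 low-oxygen genes were already lower and 1 was higher. Of the 18 sterol and lipid genes 14 were lower there and 2 higher (23.9% and 31.4% of all genes tested). In the interaction with time, 4 low-oxygen genes had a higher difference at 9 h and 2 a lower one. For sterol and lipid genes these were 6 and 2 (15.5% and 31.9% of all genes tested).

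Interferon and antigen presentation genes were split, with 6 of 21 lower and 5 higher (Irf1, Bst2, Tapbp, H2-K1 and Dhx58). Bst2, which tethers virions, was at 173 and 169 FPKM in combined-loss libraries, against 67.5 and 81.9 FPKM in knockout libraries (log2 1.19). Of 20 actin cytoskeleton genes 5 were higher and 7 lower, and of 22 collagen and matrix genes 6 were higher and 8 lower. The counts of the interferon, actin and collagen lists lie near the shares over all genes (20.5% higher and 32.5% lower). Col4a1, a basement membrane collagen, was at 47.5 and 46.1 FPKM in combined-loss libraries, against 23.1 and 22.8 FPKM in knockout libraries (log2 1.00). The sums of the fibroblast markers beside these lists were 785 and 823 FPKM in combined-loss libraries, against 1298 and 1387 FPKM in knockout libraries.

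**Figure D3:**
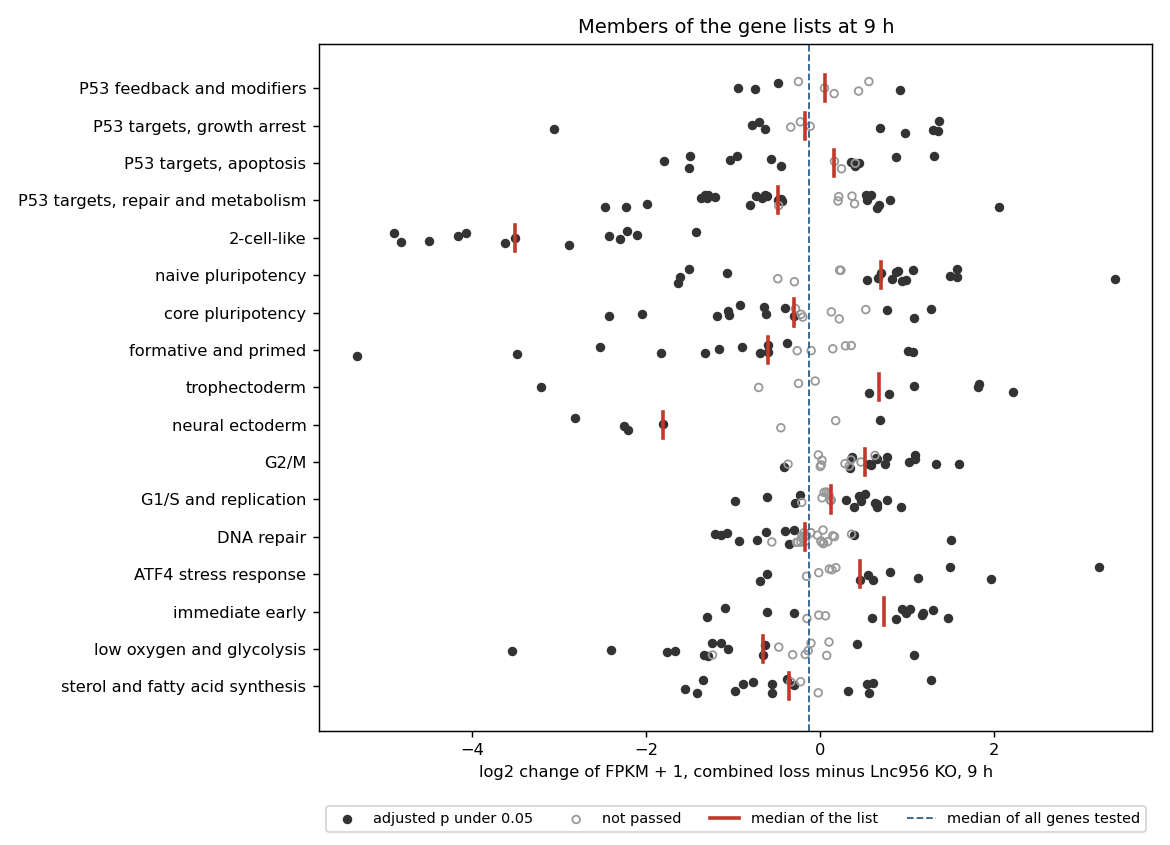
Log2 change at 9 h (combined loss minus knockout, log2(FPKM + 1) scale) of each tested member of 17 gene lists, filled where the limma adjusted p was under 0.05, with a bar at each list's median and a dashed line at the median of all genes. The 2-cell-like list lies wholly below 0 with its median at -3.51, naive and G2/M genes lie mostly above 0, and the P53 target lists spread to both sides.

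Outside the lists, the largest rises were led by genes of sparse annotation and of multicopy families. AA465934 was at 107 and 108 FPKM in combined-loss libraries, against 0 and 0.931 FPKM in knockout libraries (log2 6.29, limma adjusted p = 1.76e-09). BC002163 was at 196 and 206 FPKM in combined-loss libraries, against 11.6 and 7.23 FPKM in knockout libraries, and Gm7367 at 129.5 and 123 FPKM in combined-loss libraries, against 10.1 and 3.99 FPKM in knockout libraries. The X-linked genes Xlr3c, Xlr5a, Xlr5b and Xlr5c were all among the 10, at log2 changes of 4.03, 3.79, 3.98 and 3.79, but they are near-identical copies whose reads can be shared. Apela, encoding the apelin receptor ligand Elabela of embryonic stem cells, was at 34.4 and 41.8 FPKM in combined-loss libraries, against 1.33 and 1.73 FPKM in knockout libraries (log2 3.95, limma adjusted p = 1.01e-10). Trim54, a muscle ring-finger gene, and Mt4, a metallothionein, completed the 10, with 24.1 and 23.5 FPKM and 19.9 and 27.5 FPKM in combined-loss libraries, against 0.570 and 0.438 FPKM and 0 and 0.916 FPKM in knockout libraries. All 10 were near or below 12 FPKM in knockout libraries and above 15 FPKM in combined-loss libraries.

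The 10 largest falls included Lefty1, Zscan4b, Zscan4c and Zscan4f, described above. Gm21293 was at 0.720 and 0.535 FPKM in combined-loss libraries, against 87.2 and 73.1 FPKM in knockout libraries (log2 -5.64), and Gm4340 at 1.38 and 0.911 FPKM in combined-loss libraries, against 105 and 87.9 FPKM in knockout libraries (log2 -5.51). B020031M17Rik was listed at 0 in both combined-loss libraries, with 34.5 and 35.6 FPKM in knockout libraries. A430089I19Rik was at 0.194 and 0.135 FPKM in combined-loss libraries, against 26.3 and 28.5 FPKM in knockout libraries, and Gm7334 changed by -4.22. Apoa2, an apolipoprotein, was at 0.255 and 1.06 FPKM in combined-loss libraries, against 27.0 and 34.8 FPKM in knockout libraries (log2 -4.30, limma adjusted p = 8.07e-09). Gm21293 and Gm4340 are predicted genes with near-identical copies, and their single values carry the same doubt as those of the Zscan4 copies.

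Set against untreated cells, a large share of the rises at 9 h was already in place. Of the 2912 higher genes, 1662 (57.1%) were also higher at 0 h, where they made up 37.2% of 4472 higher genes (31.4% of all genes tested were called higher at 0 h). Of the 4625 lower genes 1763 (38.1%) were also lower at 0 h, 51.8% of the 3404 lower there (23.9% of all genes). Among changes of at least 2-fold, 584 of 767 rises (76.1%) and 675 of 1579 falls (42.7%) were called in the same direction at 0 h. Zfp42 belonged to the shared rises, with means of 607 FPKM in combined-loss cells and 38.8 FPKM in knockout cells at 0 h. Tdgf1 belonged to the shared falls, with a log2 change of -2.97 at 0 h. In the interaction test 6744 genes (47.4%) differed between the times, 2202 with a higher difference at 9 h and 4542 with a lower one. After quantile scaling these were 3057 and 2776, so which direction was the more frequent changed with the scaling.

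**Figure D4:**
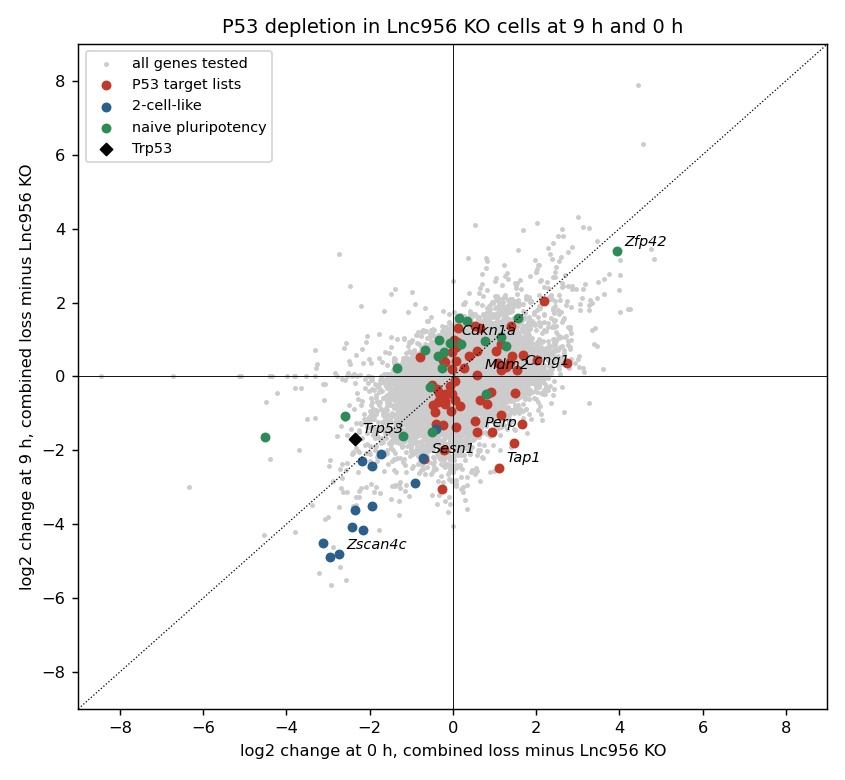
Log2 change (combined loss minus knockout) at 9 h on the vertical axis against that at 0 h on the horizontal axis for each tested gene, with P53 targets, 2-cell-like genes, naive pluripotency genes and Trp53 marked and the line of equal change dotted. The 2-cell-like genes lie in the lower left at both times, Zfp42 in the upper right, and many P53 targets right of 0 at 0 h lie below the dotted line.

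The same depletion in cells with Lnc956 gave a different set of values. P53 knockdown against WT at 9 h, which shares no library with the comparison above, had 38 of the 64 P53 targets lower and 6 higher (median -0.49, beside 0.04 over all genes; 24.8% and 29.7% of all genes were called in these directions). Of the 2912 genes higher in combined-loss cells, 1218 (41.8%) were also higher after P53 knockdown with Lnc956, 28.9% of the 4220 higher there. Of the 4625 lower genes 1764 (38.1%) were also lower there, 50% of the 3525 lower ones. Mdm2 averaged 76.0 ± 1.50 FPKM in P53 knockdown cells and 191 ± 8.72 FPKM in WT cells (SD, n = 2 each), a log2 change of -1.32, and the 2 changes differed by 1.37 (limma adjusted p = 3.21e-07). For Trp53 itself they did not pass the test (-0.13, limma adjusted p = 0.431), with log2 changes of -1.69 without and -1.55 with Lnc956. Among 64 targets the difference of the changes passed the test with a higher value in the knockout background for 23 and a lower one for 16. Over all genes 6869 (48.3%) passed, 2477 higher (17.4%) and 4392 lower (30.9%). After quantile scaling these were 3878 higher and 3270 lower, so the more frequent direction turned over here too.

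WT cells of this table differ from the other 3 groups in their fibroblast markers. At 9 h these summed to 103 and 97.1 FPKM in WT libraries, with 6 of 17 at 1 FPKM or more in both and Dcn, Postn and Fap at 0, and to 1896 and 1814 FPKM in P53 knockdown libraries. Of 16 tested, 16 rose after P53 knockdown with Lnc956, beside 3 higher and 4 lower in combined-loss cells, and 15 had a lower change in the knockout background. The collagen and actin lists went with them, since 19 of 22 and 19 of 20 rose after P53 knockdown with Lnc956, and 18 in each had a lower change in the knockout background. Low-oxygen genes had the same pattern, with 20 of 21 higher after P53 knockdown with Lnc956 and 19 with a lower change in the knockout background. ATF4 genes were the reverse, with 10 of 15 lower after P53 knockdown with Lnc956 and 13 with a higher change in the knockout background. Over all genes tested, 29.7% were higher and 24.8% lower after P53 knockdown with Lnc956. The change in the knockout background was lower for 30.9% of all genes tested and higher for 17.4%. Chac1 averaged 8.96 ± 0.875 FPKM in P53 knockdown cells and 137 ± 11.9 FPKM in WT cells (SD, n = 2 each). The part of the fibroblast markers in these differences was not tested.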

How the data were processed

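The authors deposited 1 FPKM table for the time course. Per the submitters' processing notes, the tools were TopHat2 2.0.8, Cufflinks and Cuffdiff 2.1.1, Bowtie2 2.1.0, CASAVA 2.19 and MACS2 2.2.7.1, with build mm10. The columns of combined-loss cells carry a short code and were matched to their labels as the genotype that no other column name fits. Another 4 columns match no labelled sample and were not used.

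From the FPKM, log2(FPKM + 1) was computed for 14223 genes with 1 FPKM or more in at least 2 libraries. All 14 groups (28 libraries) were fitted together in limma 3.58.1 (R 4.3.3) with a variance trend, and p-values were adjusted by Benjamini-Hochberg over all genes, at a threshold of 0.05. Fold changes on this scale understate those of low genes. The 2 interactions were contrasts of the same fit. The gene lists and the members described were chosen with earlier results of these data known. Genes were named by a rule: the 10 largest rises and 10 largest falls without overlap between groups and with 5 FPKM or above in either mean, up to 4 members per list with the smallest p, the 5 largest in each direction per interaction, and 10 fixed genes. Other names, such as those completing small counts, were chosen after their values were seen. Some list members are not reported here. The fit was tested on simulated data first.

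P53 peaks were called per sample by the authors with MACS2, per the submitters' processing notes. The deposited peak lists give a fold ratio over background and −log10 values of p and q for each peak. Peaks of treated WT cells (6200 and 6528) were kept where both replicates overlapped (4790), and joined to RefSeq gene bodies of GRCm38.p6, which has the coordinates of mm10, within 10 kb (Python 3.11.15, pandas 2.3.3, scipy 1.17.1). Intervals on shares cover counting over genes only. Alternatives were another pseudocount, other filters, quantile scaling, other fits and leaving out the libraries labelled 10 uM. Each of the 4 combined-loss and knockout libraries at 9 h was also left out in turn.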

Additional observations from a re-analysis of the deposited data

Results flagged for a closer look

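The difference between combined-loss and knockout cells was tested between times and between backgrounds, and both tests found many genes. Between 9 h and 0 h, 6744 genes passed. The 5 largest positive differences, taken as the change at 9 h minus the change at 0 h, were 8.45 for Mir703, 6.72 for Mir684-1, 6.05 for Rn4.5s, 5.15 for Mir6240 and 5.1 for Snora34. Mir703, Mir684-1, Mir6240 and Snora34 are small RNAs listed at 0 in both groups at 9 h and in combined-loss cells at 0 h, so their differences come from untreated knockout cells, where Mir703 had 268 and 452 FPKM. Rn4.5s, a small repeat-like RNA, was at 8.26 and 9.56 FPKM in combined-loss libraries at 9 h, and listed at 0 in knockout libraries at 9 h and in combined-loss libraries at 0 h.

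The 5 largest negative differences between times were -3.99 for Eif3j2, -3.93 for Nrarp, -3.64 for Rasd1, -3.58 for Tap1 and -3.57 for Rgs14. Nrarp, a feedback inhibitor of Notch signalling, was at 1.30 and 1.64 FPKM in combined-loss libraries, against 28.4 and 29.3 FPKM in knockout libraries at 9 h, with both groups under 1 FPKM at 0 h. Rasd1, a Ras-related GTPase, was at 0.777 and 1.51 FPKM in combined-loss libraries, against 19.3 and 21.5 FPKM in knockout libraries at 9 h. Rgs14, a regulator of G-protein signalling, was at 0.264 and 0.234 FPKM in combined-loss libraries, against 14.2 and 16.0 FPKM in knockout libraries. Eif3j2 had replicates far apart, at 59.4 and 15.7 FPKM in combined-loss libraries at 9 h, and its call was lost in 6 alternatives.

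Between the background without Lnc956 and that with it, 6869 genes passed. The 5 largest positive differences were 7 for Chac1, 5.16 for Spry4, 4.95 for Herpud1, 4.93 for Ubap1l and 4.9 for Nppb. Spry4, an inhibitor of receptor tyrosine kinase signalling, was at 12.4 and 14.4 FPKM in combined-loss libraries, against 2.81 and 3.89 FPKM in knockout libraries, and at 2.68 and 3.01 FPKM in P53 knockdown libraries, against 41.7 and 38.8 FPKM in WT libraries. Herpud1, a gene of the unfolded protein response, was at 55.5 and 66.2 FPKM in combined-loss libraries, against 12.2 and 11.7 FPKM in knockout libraries, and at 11.1 and 11.3 FPKM in P53 knockdown libraries, against 83.3 and 74.2 FPKM in WT libraries. Both genes ran opposite ways in the 2 backgrounds.

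The 5 largest negative differences between backgrounds were -9.77 for Ccl2, -8.81 for Ccl7, -8.66 for Lox, -8.59 for Acta2 and -8.26 for Anxa1. Ccl2, a monocyte chemokine, was at 29.9 and 29.8 FPKM in combined-loss libraries, against 137 and 128 FPKM in knockout libraries, and at 233 and 212 FPKM in P53 knockdown libraries, against 0.213 and 0 FPKM in WT libraries. Acta2, smooth muscle actin, was at 77.9 and 88.2 FPKM in combined-loss libraries, against 194 and 205 FPKM in knockout libraries, and at 171 and 154 FPKM in P53 knockdown libraries, against 0 and 0.0248 FPKM in WT libraries. With a group at or near 0, these differences depend on the pseudocount and are no bounds, as for the small RNAs above. Each of these 5 genes was under 1 FPKM in both WT libraries, whose summed fibroblast markers were also the lowest of the 4 groups at 9 h. The part of those markers in these differences was not tested.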

How the results depend on the processing

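The count of 7537 genes was 7265 with a pseudocount of 0.1, 8233 without the filter, 5840 with a filter of 5 FPKM, 7671 after quantile scaling, 7344 with only the 4 libraries fitted, 5904 without the libraries labelled 10 uM and 6196 to 6401 when 1 library was left out. The interaction with time ranged over 5450 to 6220 genes and that with background over 6086 to 6155 when 1 library was left out. Of 1638 values recomputed for the named genes, 1621 kept their direction and side of the threshold, 14 were no longer past it, 1 became so and 2 reversed: Mdm2 after quantile scaling (-0.121) and Ccng1 when 1 library was left out (-0.0692 to 0.392, the lowest without combined-loss replicate 1), neither past the threshold in the main values. Shares with a P53 peak were 17.6, 22.8 and 19.5% of lower, higher and other genes within 1 kb of the gene, and 3.67, 4.44 and 3.72% with −log10 q of 10 or more, in the same order as at 10 kb, although the intervals overlap at that q limit. List counts were recomputed after the data had been seen. Most of the named genes were chosen for a large change or a small p in these same libraries. That their values kept their side of the threshold was therefore largely set by that choice. The deviations of same-numbered libraries correlated at 0.2 between combined-loss and knockout cells at 9 h and at 0.13 at 0 h, and from -0.3 to 0.057 in 5 other pairs of groups. No label says that the numbers pair libraries, and with the replicate number as a replicate block 7533 genes passed, and 6758 and 6855 in the interactions. Only the 4 combined-loss and knockout libraries at 9 h were left out singly, so the interactions were not recomputed without single libraries of their other groups. Where a library was left out, the lone one of its group is assumed to vary like the other groups. Depth in fragments is unknown, and 2 libraries a group limit the precision.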
